A study of Homo sapiens with 30 samples.

Results

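The genes described here are 10 transcripts of the insulin and FOXO pathway, namely INSR, IRS1, IRS2, PIK3IP1, FOXO1, FOXO3, DEPP1, CCNG2, BCL6 and TXNIP. They were chosen by symbol, and each matched 1 Ensembl gene identifier among the 60675 rows of the count table. All 10 passed the filter on low counts in both statistical models. In HT29 cells treated with herbal extracts the largest falls past the test were those of DEPP1 and TXNIP. DEPP1 was lower in every extract library than in every vehicle library. TXNIP was low in the libraries of Soshiho-tang at its highest dose, where FOXO1 was high. CCNG2 stood higher at the lowest than at the highest dose of each of the 4 formulas.

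Insulin and insulin-like growth factors bind receptors that phosphorylate the adaptor proteins IRS1 and IRS2, which recruit PI3K and thereby activate the kinase AKT. AKT phosphorylates FOXO transcription factors, which then leave the nucleus, so FOXO target genes are transcribed mainly when insulin signalling is low. FOXO factors act in intestinal epithelium and colorectal tumour cells on the cell cycle, metabolism and resistance to stress. These are textbook relations, and the libraries measured RNA only, not phosphorylation, protein or the location of a factor in the cell.

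HT29 is an established human colorectal adenocarcinoma line. All groups came from that line and were treated for 24 h, and the labels set them apart by treatment and, in the titles, by batch. Vehicle (DMSO) had 3 libraries. The ethanol extracts of Soshiho-tang and Yijin-tang had 3 libraries at each of 20, 100 and 500 µg/mL, the extract of Okbyeongpung-san had 2 at each dose, and that of Soyo-san had 1 at each dose, which makes 30 libraries in 13 groups. The labels give DMSO as 0.1% and the design text gives it as 2%. The design text lowers the doses of extracts with an IC20 (the concentration that inhibits 20%) under 500 µg/mL, while the labels carry the same 3 doses for all extracts, so the label doses are uncertain. Wortmannin at 10 µM, an inhibitor of PI3K named in the design text as positive control, is not analysed here.

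By their titles the Soyo-san libraries and Okbyeongpung-san replicate 3 belong to batch D, and the rest to batch E. What a batch stands for is not said. The vehicle libraries have library names of a set of their own, so vehicle treatment and library set cannot be told apart. Soshiho-tang and Yijin-tang libraries share another set of names, and those of Okbyeongpung-san and Soyo-san share a further set. Differences between formulas of different sets cannot be told apart from library set either. In a principal component analysis of 10564 genes the vehicle libraries lay at 8.2 to 16.1 on the second component (14.5% of the variance). Replicate 2 of Okbyeongpung-san at 100 µg/mL lay at 6.6, and the other extract libraries lay between -4.8 and 4.2. Totals ran from 18.5 M to 36.2 M counts per library, with the vehicle libraries at 25.4 M to 36.2 M. Mitochondrial transcripts took 11.48% to 13.93% of counts in vehicle and 9.06% to 12.87% in extract libraries. Of 9 colon epithelial markers all were detected in every library, although CDX1 (0.371 to 1.22 counts per M, CPM) and CDX2 (2.63 to 4.84 CPM) were low, and the summed level of the list was 12018 to 13876 CPM in vehicle and 11037 to 12778 CPM in extract libraries. Of 7 markers of other cells, PTPRC was at 0 in 20 libraries, COL1A2 in 28, ALB in 27, INS in 29 and VIM in 7 (at most 2 CPM), while COL1A1 (0.752 to 2.5 CPM) and PECAM1 (0.75 to 2.06 CPM) were detected in every library. Their sum was 2.53 to 5.99 CPM in vehicle against 1.69 to 3.87 CPM in extract libraries. COL1A1 and PECAM1, which alone of these passed the count filter, were called lower and higher with Soshiho-tang at 500 µg/mL against vehicle (-0.90 and 0.52 on the log2 scale, edgeR adjusted p = 0.0051 and 0.034). The part of these differences in the results below was not tested. In bulk RNA fewer cells of a kind and less RNA per cell cannot be told apart.

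Levels per gene are given in CPM, and differences as log2 fold changes with a standard error (SE). A gene is called changed where the adjusted p of edgeR's quasi-likelihood test, corrected by Benjamini-Hochberg over all genes of the comparison, is below 0.05. Since no label states whether replicates came from independent cultures, the p-values reflect the spread among these libraries, part or all of which may be technical. All comparisons with vehicle share the same 3 vehicle libraries. Where groups are said not to overlap and no share of all genes is given, that share was not counted. Divided by exon length, the vehicle levels ran in the order IRS1 (16.6 ± 1.59 CPM per kb, SD, n = 3), TXNIP (14.5 ± 0.079), FOXO3 (10.2 ± 0.337), FOXO1 (5.8 ± 0.126), BCL6 (4.49 ± 0.212), IRS2 (4.09 ± 0.457), CCNG2 (3.48 ± 0.17), INSR (1.59 ± 0.161), DEPP1 (1.4 ± 0.0726) and PIK3IP1 (0.187 ± 0.0725). The SD ranges of neighbours in that order overlapped for BCL6 and IRS2, for IRS2 and CCNG2 and for INSR and DEPP1, while those of the other neighbours did not.

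FOXO proteins bind the core TGTTTAC, and insulin-repressed promoters often carry the related TGTTTTG. The carbohydrate response element, bound by the glucose-sensing factors MondoA and ChREBP, was searched as 2 copies of CACGNG separated by 5 bases. All 10 genes had windows from 250 bases before to 50 bases after a transcription start in RefSeq (GRCh38.p14), which were searched on both strands. DEPP1 held the FOXO core at bases -180 to -174 and TXNIP at -124 to -118, both as GTAAACA, the other strand's reading. PIK3IP1 held it at bases 17 to 23 after a start, and IRS2 held TGTTTTG at -40 to -34. TXNIP also held the carbohydrate response element at -88 to -72. Of 35116 such windows, 3.42% held the FOXO core, 4.92% held TGTTTTG and 0.057% (20 windows) held the carbohydrate response element. These shares are per window, whereas FOXO3 had 4 windows, TXNIP, PIK3IP1 and BCL6 had 2 each and the other genes 1. TXNIP and PIK3IP1 each held their matches in only 1 of their 2 windows. IRS1, INSR, FOXO1, FOXO3, CCNG2 and BCL6 held no match. The 3 stretches below are shown because DEPP1 and TXNIP had the largest falls past the test and because IRS2 holds the insulin response form. All run 5′ to 3′ on the reverse strand, with the matches in capitals, and cover chr10:44978940-44979019 for DEPP1, chr1:145996630-145996719 for TXNIP and chr13:109786594-109786653 for IRS2. The first lies within the gene RASSF4, which runs on the opposite strand, the second in no annotated gene and the third within an antisense gene, AL162497.1. A match of letters is a description and not a binding site.
DEPP1: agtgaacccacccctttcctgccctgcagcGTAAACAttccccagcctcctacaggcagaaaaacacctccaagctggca
TXNIP: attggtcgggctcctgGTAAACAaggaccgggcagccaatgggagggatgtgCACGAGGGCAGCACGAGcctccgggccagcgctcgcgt
IRS2: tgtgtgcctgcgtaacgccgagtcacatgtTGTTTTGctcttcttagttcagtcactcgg

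Soshiho-tang at 500 µg/mL changed 7 of the 10 genes against vehicle, with FOXO1 and IRS1 higher and DEPP1, TXNIP, CCNG2, FOXO3 and IRS2 lower. In that comparison 39.2% of all genes tested were called. The median log2 fold change was -0.15 over the 10 genes and -0.03 over all genes. Against its own dose of 20 µg/mL, which involves no vehicle library, 6 genes changed, with FOXO1 and IRS1 higher and TXNIP, CCNG2, DEPP1 and FOXO3 lower, where 26.6% of all genes were called. The medians there were -0.23 and -0.01. Yijin-tang at 500 µg/mL changed DEPP1 and TXNIP against vehicle (21.4% of all genes) and CCNG2 and FOXO3 against its own dose of 20 µg/mL (1.92% of all genes). Okbyeongpung-san at 500 µg/mL changed DEPP1 against vehicle (4.38% of all genes) and CCNG2 against 20 µg/mL (0.558% of all genes), all of these lower. The map of fold changes shows these calls for every comparison but that of the dose effects.

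**Figure D1:**
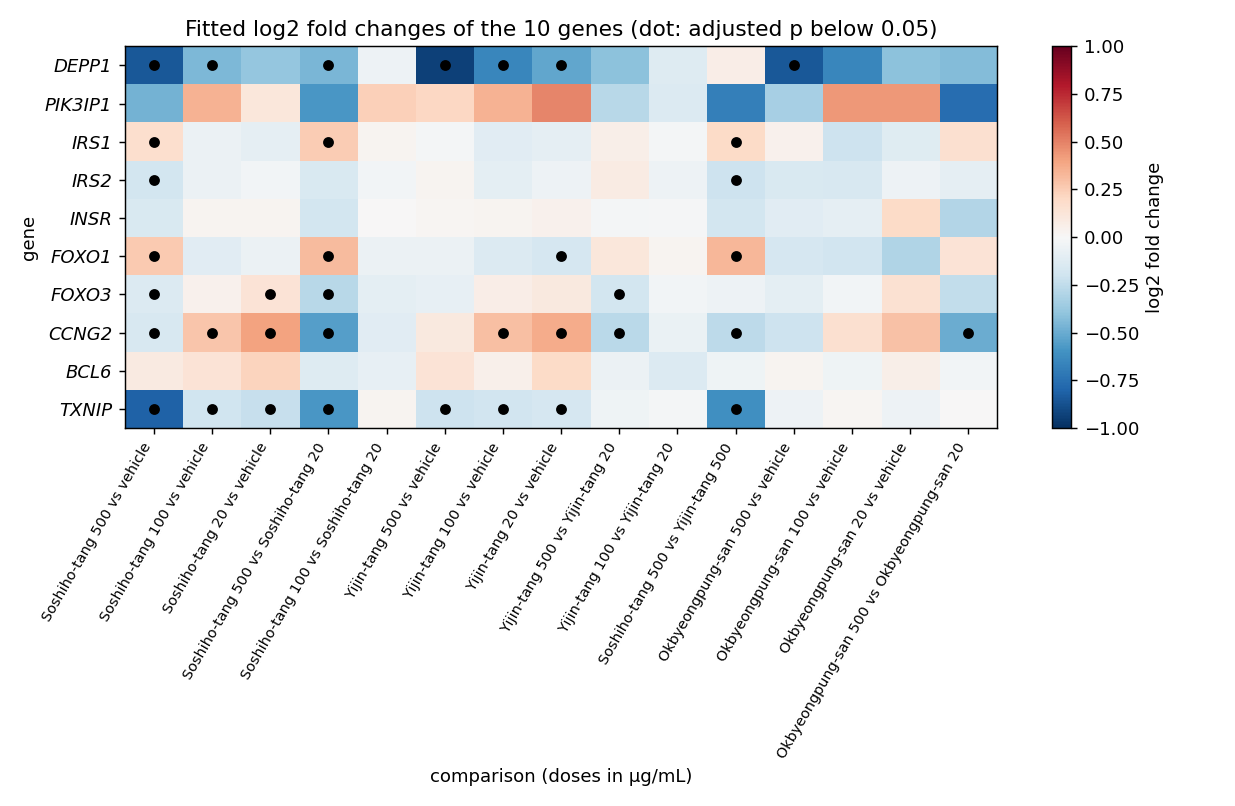
Fitted log2 fold changes of the 10 genes (rows) in 15 comparisons (columns, doses in µg/mL), coloured from -1 (blue) to 1 (red), with a dot where the adjusted p was below 0.05. DEPP1 is blue in all comparisons with vehicle, and the deepest colours of TXNIP are in the 3 columns that set Soshiho-tang at 500 µg/mL against another group.

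INSR encodes the insulin receptor (chromosome 19, 7112255 to 7294034 on GRCh38, reverse strand). It changed in no comparison of the main analysis. Vehicle libraries had 18.5, 15.8 and 15.5 CPM, and those of Soshiho-tang at 500 µg/mL had 15.9, 14.4 and 15. The groups overlapped through the latter's first library, and the log2 fold change was -0.15 ± 0.0765 (SE, edgeR adjusted p = 0.12). The full range over the 30 libraries ran from 14.1 CPM in replicate 2 of Okbyeongpung-san at 100 µg/mL to 19.2 CPM in replicate 2 of its 20 µg/mL dose. The Okbyeongpung-san libraries at 500 µg/mL (14.7 and 16.3 CPM) lay below those at 20 µg/mL (19.2 and 18.7), and the difference of -0.29 ± 0.12 did not pass the test (adjusted p = 0.54). With only the libraries compared INSR was called for this difference (-0.30) and for that between 500 and 20 µg/mL of Soshiho-tang (-0.18).

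IRS1 and IRS2 encode the main adaptors between the receptor and PI3K, and against vehicle they moved in opposite directions with Soshiho-tang at 500 µg/mL. IRS1 (chromosome 2, 226731317 to 226799759, reverse strand) had 185, 193 and 181 CPM in those libraries against 159, 156 and 152 CPM at 20 µg/mL and 182, 151 and 161 CPM in vehicle. All libraries at 500 µg/mL exceeded those at 20 µg/mL, whereas the first vehicle library lay among them. IRS1 was higher than at 20 µg/mL by 0.25 ± 0.0484 (edgeR adjusted p = 0.00021) and than in Yijin-tang at 500 µg/mL (163 CPM in each of its 3 libraries) by 0.19 ± 0.0483 (adjusted p = 0.0073). Against vehicle the rise was 0.17 ± 0.0481 (adjusted p = 0.0065), and it lost its call at 0.11 without vehicle replicate 2 and with only the libraries compared. The call against Yijin-tang was lost at 0.17 without replicate 2 of Soshiho-tang. IRS1 at 500 µg/mL of Okbyeongpung-san had 178 and 159 CPM and was not called.

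IRS2 (chromosome 13, 109752698 to 109786568, reverse strand) is itself a known FOXO target. It had 29, 30.8 and 29.2 CPM with Soshiho-tang at 500 µg/mL, 37.5, 32 and 30.5 CPM in vehicle, and 31.5, 35 and 36.8 CPM with Yijin-tang at 500 µg/mL. The Soshiho-tang libraries lay below those of Yijin-tang but overlapped with vehicle. The fall was 0.18 ± 0.0678 on the log2 scale against vehicle (edgeR adjusted p = 0.036) and 0.21 ± 0.0687 against Yijin-tang (adjusted p = 0.038). IRS2 was not called against 20 µg/mL (-0.15 ± 0.0691, adjusted p = 0.1), and those groups overlapped. Each of the 2 calls was lost in 6 of 11 alternatives. The first was lost with DESeq2, with RLE size factors, with only the libraries compared, without vehicle replicate 1, where the value was -0.08, and without replicate 1 (-0.16) or 3 (-0.17) of Soshiho-tang. The second was lost with DESeq2, and without replicate 1, 2 or 3 of Soshiho-tang or replicate 2 or 3 of Yijin-tang, with values from -0.24 to -0.16.

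**Figure D2:**
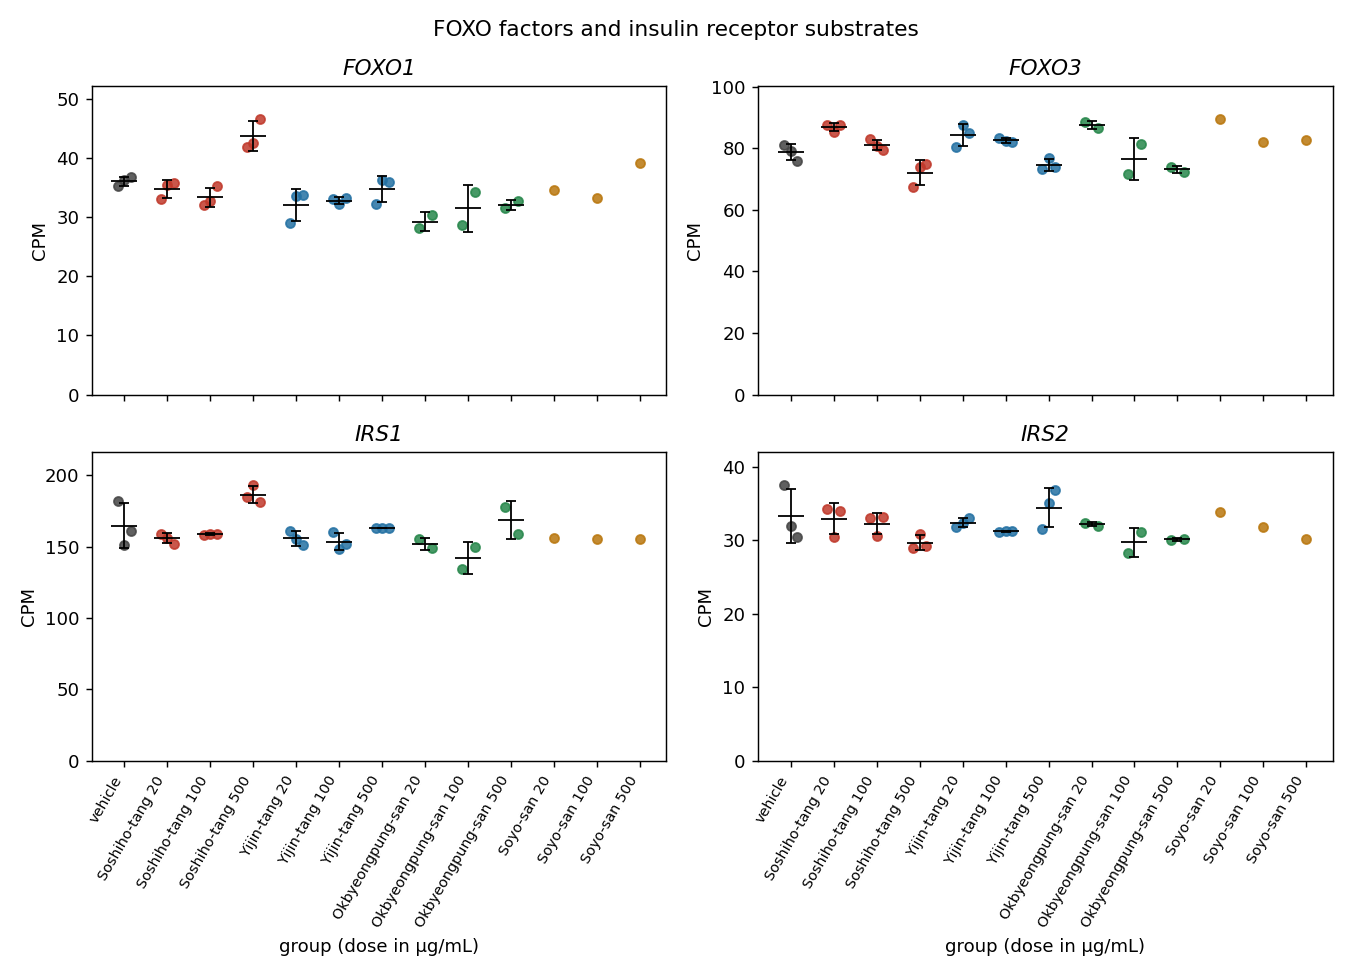
Levels of FOXO1, FOXO3, IRS1 and IRS2 in CPM (vertical axes from 0) in each library (points) of the 13 groups (doses in µg/mL), with group means and SD as bars where a group has more than 1 library. FOXO1 stands out at 41.9 to 46.6 CPM with Soshiho-tang at 500 µg/mL, and the FOXO3 means lie lower at 500 than at 20 µg/mL of Soshiho-tang, Yijin-tang and Okbyeongpung-san, although the difference passed the test for Soshiho-tang and Yijin-tang only.

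PIK3IP1 encodes a membrane protein that inhibits PI3K (chromosome 22, 31281593 to 31292534, reverse strand). It was the least abundant of the 10 genes, at 0.323 to 1.34 CPM or 6 to 37 counts per library, and passed no test with all libraries. The Soshiho-tang libraries at 500 µg/mL had 0.596, 0.578 and 0.401 CPM, below all of those at 20 µg/mL (0.992, 0.778 and 0.628) but not below all vehicle libraries (1.03, 0.514 and 0.592). The difference from 20 µg/mL was -0.58 ± 0.30 (edgeR adjusted p = 0.16) and that from Yijin-tang at 500 µg/mL was -0.68 ± 0.30 (adjusted p = 0.14). Yijin-tang at 20 µg/mL gave 0.49 ± 0.26 against vehicle (adjusted p = 0.21), and without vehicle replicate 1, the highest of the 3, the value was 0.89 and was called (adjusted p = 0.03). Okbyeongpung-san at 500 µg/mL gave 0.771 and 0.323 CPM, the lowest library of all being the second.

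FOXO1 and FOXO3 encode the transcription factors that AKT inhibits, and their transcripts moved in opposite directions with Soshiho-tang. FOXO1 (chromosome 13, 40469953 to 40666597, reverse strand) had 41.9, 42.5 and 46.6 CPM at 500 µg/mL. These were the highest of all 30 libraries. The next was Soyo-san at 500 µg/mL with 39.1 CPM. Vehicle had 35.3, 36.2 and 36.8 CPM, a range that libraries of Soshiho-tang at 20 µg/mL and Yijin-tang at 500 µg/mL reached too. A complete separation of this kind, Soshiho-tang at 500 µg/mL above all other libraries, was found for 6.91% of all genes. FOXO1 rose by 0.26 ± 0.0589 against vehicle (edgeR adjusted p = 0.0007), by 0.32 ± 0.06 against 20 µg/mL (adjusted p = 0.00017) and by 0.33 ± 0.06 against Yijin-tang at 500 µg/mL (adjusted p = 0.00029). The last comparison called 13.1% of all genes. These 3 calls held in every alternative run.

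At 20 µg/mL the mean FOXO1 level was 34.7 CPM for Soshiho-tang, 32 for Yijin-tang and 29.2 for Okbyeongpung-san, against 36.1 CPM in vehicle. Yijin-tang at 20 µg/mL had 29, 33.5 and 33.7 CPM, all below vehicle, with a fall of 0.17 ± 0.06 on the log2 scale (edgeR adjusted p = 0.046). That call was lost in 7 of 11 alternatives, namely with DESeq2, with RLE size factors, with only the libraries compared, and without replicate 1 of the dose (-0.11), replicate 2 of the dose (-0.21), vehicle replicate 2 (-0.17) or vehicle replicate 3 (-0.16). Okbyeongpung-san at 20 µg/mL had 28.1 and 30.4 CPM and a difference of -0.30 ± 0.0828 (adjusted p = 0.09). It was called without vehicle replicate 1 (-0.32), without a filter on low counts (-0.31) and in 1 fit of all 30 libraries (-0.30).

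FOXO3 (chromosome 6, 108559835 to 108684774, forward strand) was lower at the highest than at the lowest dose of Soshiho-tang and Yijin-tang. For Soshiho-tang its libraries had 87.6, 85.3 and 87.6 CPM at 20 µg/mL, 82.9, 80.8 and 79.5 CPM at 100 µg/mL, and 67.3, 73.8 and 74.9 CPM at 500 µg/mL. The 3 doses did not overlap, and the share of all genes with such a separation was not counted. The fall from 20 to 500 µg/mL was 0.28 ± 0.0443 on the log2 scale (edgeR adjusted p = 2.5e-05) and held in every alternative. Yijin-tang had 80.3, 87.6 and 84.9 CPM at 20 µg/mL and 73.1, 76.7 and 73.9 CPM at 500 µg/mL, a fall of 0.18 ± 0.0441 (adjusted p = 0.025). The Yijin-tang call was lost without replicate 1 (-0.16) or 3 (-0.17) at 500 µg/mL or without replicate 2 (-0.15) or 3 (-0.17) at 20 µg/mL, and without a filter on low counts. For Okbyeongpung-san the difference was -0.25 ± 0.076 (adjusted p = 0.29), with -0.26 within batch E and -0.26 within batch D. It was called with only the libraries compared (-0.26) and in 1 fit of all 30 libraries (-0.26).

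Vehicle lay between the doses for FOXO3, at 81, 79 and 75.9 CPM. Soshiho-tang at 20 µg/mL was above all of these by 0.14 ± 0.0435 (edgeR adjusted p = 0.027), and at 500 µg/mL it was below all of these by a log2 fold change of -0.14 ± 0.0441 (adjusted p = 0.015). The rise was lost without vehicle replicate 3 (0.11) or without replicate 1 (0.13) or 3 (0.13) of the dose, and the fall without vehicle replicate 1 (-0.11) or replicate 1 of the dose (-0.09). Both were also lost with only the libraries compared, and the rise without a filter on low counts.

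DEPP1 is a small protein whose transcript FOXO factors induce, and it is linked to autophagy and oxidative stress. Its gene (chromosome 10, 44970981 to 44978810, reverse strand) lies within RASSF4 on the opposite strand. The library kit was directional, but the use of strand in counting is not given in the sources used here. Median counts were 64 for DEPP1 and 14 for RASSF4. Vehicle libraries had 4.24, 3.92 and 4.33 CPM of DEPP1, from 99 to 153 counts. The 27 extract libraries ran from 1.7 to 3.79 CPM, all below vehicle. Such a separation, with vehicle above all extract libraries, was seen for 2.15% of all genes.

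DEPP1 was lowest at the highest doses. Soshiho-tang had 3.52, 2.83 and 3.22 CPM at 20 µg/mL, 3.79, 3.28 and 2.23 CPM at 100 µg/mL, and 2.52, 2.31 and 2.1 CPM at 500 µg/mL. Yijin-tang had 3.42, 2.91 and 2.4 CPM, 2.47, 3.14 and 2.44 CPM, and 2.18, 2.28 and 2.15 CPM at the same doses. In both formulas the libraries at 500 µg/mL lay below all of those at 20 µg/mL, and for Yijin-tang that difference was not called (-0.41 ± 0.17, edgeR adjusted p = 0.3). At 500 µg/mL DEPP1 fell against vehicle by 0.85 ± 0.16 on the log2 scale with Soshiho-tang (edgeR adjusted p = 0.00011), by 0.93 ± 0.16 with Yijin-tang (adjusted p = 0.00017) and by 0.85 ± 0.16 with Okbyeongpung-san (adjusted p = 0.014). The first and second calls held in every alternative. The last rests on 2.35 and 2.26 CPM and was lost without replicate 2 (-0.88), without replicate 3 (-0.82) or with the libraries of batch E alone (-0.82). DESeq2 gave no adjusted p for it.

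The DEPP1 differences at lower doses were smaller. Yijin-tang at 100 µg/mL gave -0.65 ± 0.16 (edgeR adjusted p = 0.0045), which held in every alternative, in a comparison that called 18.4% of all genes. At 20 µg/mL it gave -0.52 ± 0.15 (adjusted p = 0.019, 16.8% of all genes called), which was lost without vehicle replicate 3 (-0.50) or replicate 2 (-0.52) or 3 (-0.40) of the dose and with only the libraries compared. Soshiho-tang gave -0.45 ± 0.15 at 100 µg/mL (adjusted p = 0.042, 18.3% of all genes called) and -0.39 ± 0.15 at 20 µg/mL (adjusted p = 0.077). The former was lost without vehicle replicate 1 (-0.43) or 3 (-0.42) or without replicate 2 (-0.50) or 3 (-0.24) of the dose, and with DESeq2 or only the libraries compared. Okbyeongpung-san gave -0.65 ± 0.16 at 100 µg/mL and -0.41 ± 0.15 at 20 µg/mL, neither of which was called (adjusted p = 0.12 and 0.17). Between 20 and 500 µg/mL of Soshiho-tang the fall was 0.46 ± 0.17 (adjusted p = 0.045), a call lost in 6 of 11 alternatives. Leaving out any 1 of the 3 libraries at 500 µg/mL, or replicate 1 or 3 at 20 µg/mL, ended it, with values from -0.52 to -0.39, as did DESeq2. For Okbyeongpung-san the difference was -0.43 ± 0.18 and was not called (adjusted p = 0.57).

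**Figure D3:**
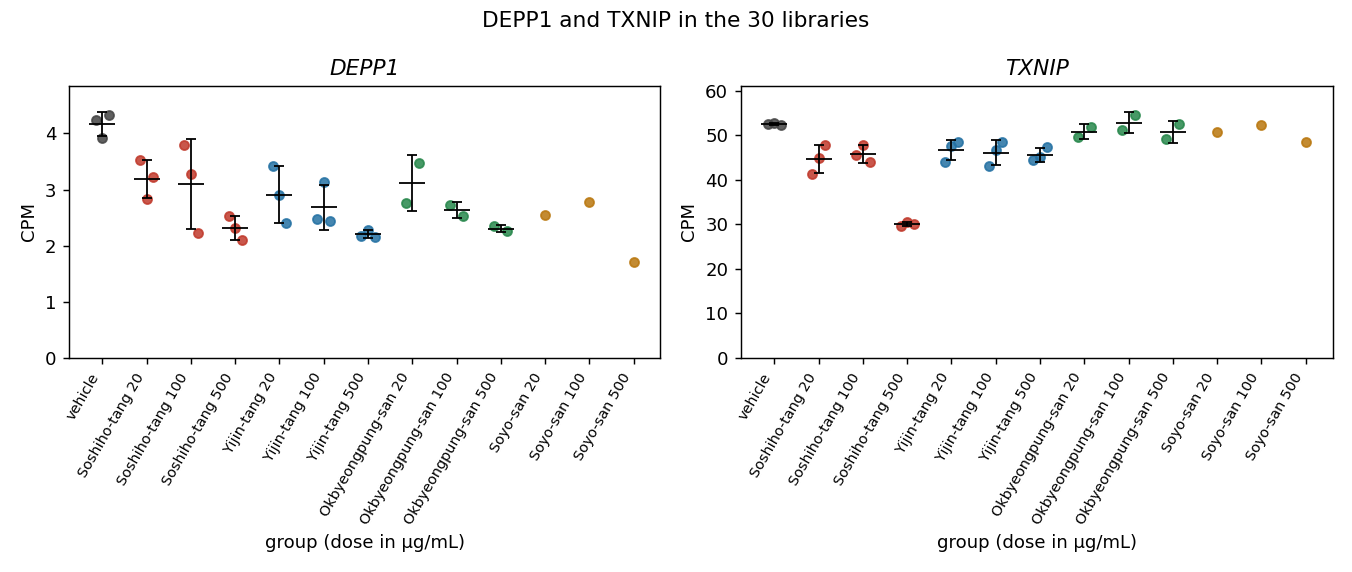
Levels of DEPP1 (left) and TXNIP (right) in CPM (vertical axes from 0) in each of the 30 libraries (points), by group (doses in µg/mL), with group means and SD as bars where a group has more than 1 library. All vehicle libraries exceed all extract libraries for DEPP1, and for TXNIP the 3 libraries of Soshiho-tang at 500 µg/mL lie at 29.6 to 30.5 CPM, below every other library.

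TXNIP encodes a thioredoxin-binding arrestin that limits glucose uptake, and its gene is regulated by FOXO factors and induced by glucose through MondoA and ChREBP. The gene (chromosome 1, 145992435 to 145996600, reverse strand) had 29.6, 30.5 and 30 CPM with Soshiho-tang at 500 µg/mL. The other 27 libraries ran from 41.4 to 54.6 CPM, so these 3 stood apart, as did 5.11% of all genes in that direction. TXNIP fell by 0.81 ± 0.0566 on the log2 scale against vehicle (52.6, 52.8 and 52.3 CPM, edgeR adjusted p = 9.1e-12), to 0.569 of the vehicle level. It fell by 0.58 ± 0.0579 against 20 µg/mL (41.4, 45 and 47.8 CPM, adjusted p = 9.7e-09) and by 0.61 ± 0.0577 against Yijin-tang at 500 µg/mL (44.5, 45.1 and 47.4 CPM, adjusted p = 1.1e-08). These 3 calls held in every alternative. The step from 20 to 500 µg/mL was larger for Soshiho-tang than for Yijin-tang, with a difference of -0.55 ± 0.08 (adjusted p = 4.7e-05 for the difference of the dose effects, where 4.69% of all genes were called).

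A smaller fall of TXNIP was present at all other doses of these 2 formulas. Soshiho-tang gave -0.20 ± 0.0542 at 100 µg/mL (edgeR adjusted p = 0.01) and -0.23 ± 0.0543 at 20 µg/mL (adjusted p = 0.0036, where 16.8% of all genes were called). Yijin-tang gave -0.21 ± 0.0542 at 500 µg/mL (adjusted p = 0.0069), -0.19 ± 0.0542 at 100 µg/mL (adjusted p = 0.014) and -0.17 ± 0.054 at 20 µg/mL (adjusted p = 0.027). In each of these 5 groups all libraries lay below all vehicle libraries, which are the same 3 each time. The share of all genes separated in this way was not counted. All 5 calls were lost when only the libraries compared were fitted. Leaving out single libraries ended 3 of them. The call at 100 µg/mL of Soshiho-tang was lost without replicate 3 of that dose (-0.17), and that of Yijin-tang without replicate 1 (-0.14). The call at 20 µg/mL of Yijin-tang was lost without vehicle replicate 3 (-0.18) or replicate 1 (-0.13) or 2 (-0.19) of the dose. Okbyeongpung-san libraries had 49.1 to 54.6 CPM over the 3 doses, around the vehicle level, and log2 fold changes of -0.05 ± 0.0676 at 20 µg/mL, 0.02 ± 0.0675 at 100 µg/mL and -0.05 ± 0.0675 at 500 µg/mL, none called. Okbyeongpung-san belongs to another library set than Soshiho-tang and Yijin-tang, so formula and set cannot be told apart here.

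CCNG2 encodes cyclin G2, an atypical cyclin that restrains the cell cycle and is induced by FOXO factors. The gene (chromosome 4, 77157151 to 77433388, forward strand) had lower levels at higher doses in all 4 formulas. The step from 20 to 100 µg/mL was not called for Soshiho-tang (-0.11 ± 0.0555) or Yijin-tang (-0.07 ± 0.0553). Mean levels at 20, 100 and 500 µg/mL were 34.3, 31.7 and 23.4 CPM for Soshiho-tang, 33.6, 32.1 and 28 CPM for Yijin-tang, and 31.8, 28.9 and 22.4 CPM for Okbyeongpung-san. Soyo-san had 32.3, 29.1 and 27.2 CPM in its single libraries. The 9 libraries at 500 µg/mL ran from 21.3 to 28.6 CPM and the 9 at 20 µg/mL from 30.4 to 35.3 CPM without overlap, a pattern shared in that direction by 2.21% of all genes.

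The step from 20 to 500 µg/mL was tested within each replicated formula. CCNG2 fell by 0.55 ± 0.0576 on the log2 scale with Soshiho-tang (edgeR adjusted p = 2.1e-08), by 0.27 ± 0.056 with Yijin-tang (adjusted p = 0.0072) and by 0.50 ± 0.0909 with Okbyeongpung-san (adjusted p = 0.027). For Okbyeongpung-san the difference was -0.50 within batch E (33.2 to 23.5 CPM) and -0.51 within batch D (30.4 to 21.3 CPM). The Soshiho-tang call held in every alternative. That of Yijin-tang was lost without replicate 1 at 500 µg/mL (-0.24). That of Okbyeongpung-san was lost without any 1 of its 4 libraries, with values from -0.58 to -0.43, where the remaining library of a dose is assumed to vary like the other groups. The fall was larger for Soshiho-tang than for Yijin-tang, with a difference of -0.29 ± 0.0803 (adjusted p = 0.034). This difference of the dose effects was lost with DESeq2 and in 9 of the 12 fits that left out a library, with values from -0.33 to -0.25 over all alternatives, and held without replicate 1 of either formula at 500 µg/mL or replicate 3 of Soshiho-tang at 20 µg/mL.

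Vehicle libraries had 26.2, 27.1 and 24.6 CPM of CCNG2. These lay between the 20 and 500 µg/mL doses of Soshiho-tang and Okbyeongpung-san and below every library of Yijin-tang and Soyo-san. Soshiho-tang at 20 µg/mL (35.3, 35.3 and 32.2 CPM) was higher by 0.40 ± 0.0555 (edgeR adjusted p = 2e-05) and at 100 µg/mL (33.9, 31.1 and 30.2 CPM) by 0.28 ± 0.0559 (adjusted p = 0.00074). Yijin-tang was higher by 0.37 ± 0.0554 at 20 µg/mL (33.7, 33.5 and 33.7 CPM, adjusted p = 5.5e-05) and by 0.30 ± 0.0558 at 100 µg/mL (31.3, 33.3 and 31.6 CPM, adjusted p = 0.00042). These 4 rises held in every alternative, each of which kept the vehicle set as reference. In these comparisons 16.8% to 18.4% of all genes were called. Okbyeongpung-san at 20 µg/mL (33.2 and 30.4 CPM) lay above vehicle by 0.29 ± 0.0806, which did not pass (adjusted p = 0.093) but did without vehicle replicate 2 (0.33), without a filter on low counts (0.28) and in 1 fit of all 30 libraries (0.29). At 500 µg/mL Soshiho-tang (24.2, 23.9 and 22.1 CPM) was below vehicle by a log2 fold change of -0.16 ± 0.058 (adjusted p = 0.032), which was lost in 7 of 11 alternatives, among them those without vehicle replicate 1 (-0.15), vehicle replicate 2 (-0.13) or replicate 3 of the dose (-0.12). Yijin-tang at 500 µg/mL (27.1, 28.6 and 28.3 CPM) was not called against vehicle (0.10 ± 0.0565, adjusted p = 0.2). Soshiho-tang was lower than Yijin-tang at that dose, with a log2 fold change of -0.26 ± 0.0586 (adjusted p = 0.0024).

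**Figure D4:**
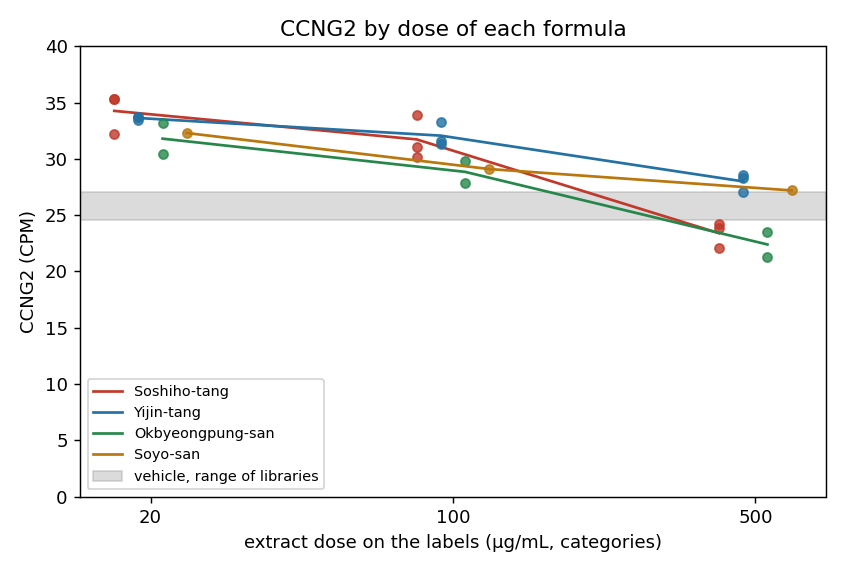
CCNG2 in CPM (vertical axis from 0) against the labelled extract dose in µg/mL (categories), with a point for each library, lines through the group means of each formula, and a grey band for the range of the 3 vehicle libraries, 24.6 to 27.1 CPM. In each formula the points at 500 µg/mL lie below those at 20 µg/mL, which are all above the band. At 500 µg/mL the Soshiho-tang and Okbyeongpung-san points lie below the band, and those of Yijin-tang (27.1 to 28.6 CPM) and Soyo-san (27.2 CPM) at its upper edge or above it.

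BCL6 encodes a transcriptional repressor of the zinc finger family that FOXO factors induce (chromosome 3, 187721377 to 187745727, reverse strand). It passed no test of the main analysis. Vehicle libraries had 26.7, 25.4 and 27.9 CPM, and Soshiho-tang at 20 µg/mL had 33.9, 32.3 and 27.5 CPM, overlapping with vehicle through its last library. The difference was 0.22 ± 0.0801 (edgeR adjusted p = 0.059), and it was called without that library (0.30), with DESeq2 (0.23) and without a filter on low counts (0.21). Yijin-tang at 20 µg/mL had 31.4, 30.9 and 29.5 CPM, all above vehicle, with a difference of 0.19 ± 0.0799 (edgeR adjusted p = 0.097), which was called without a filter on low counts (0.18).

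The middle dose was tested against the lowest for Soshiho-tang and Yijin-tang. Between 100 and 20 µg/mL edgeR called 0% of all genes for Soshiho-tang and 0% for Yijin-tang, and DESeq2 called 0 genes in either formula. At an unadjusted p below 0.05 edgeR had 479 and 508 genes, or 3.01% and 3.2%. Of the 10 genes, FOXO3 alone reached that level, with Soshiho-tang (-0.10 ± 0.0439), and none did with Yijin-tang. Okbyeongpung-san at 100 and 20 µg/mL changed 0 of the 10 genes against vehicle by edgeR and 0 by DESeq2, which gave no adjusted p for DEPP1 and PIK3IP1 there. At an unadjusted p below 0.05 there were 3 genes at 100 µg/mL (DEPP1, IRS1 and FOXO1) and 4 at 20 µg/mL (DEPP1, FOXO1, FOXO3 and CCNG2). At that level stood 15.2% and 19.4% of all genes, while 0.108% and 0.273% of all genes were called. Okbyeongpung-san libraries had 71.7 and 81.3 CPM of FOXO3 at 100 µg/mL, below those at 20 µg/mL (88.4 and 86.5 CPM), a difference that was not tested.

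Soyo-san had 1 library per dose and no test, and its intervals cover counting error only. At 500 µg/mL DEPP1 had 1.7 CPM (95% exact binomial interval 1.21 to 2.31), the lowest value of all libraries. FOXO1 had 39.1 CPM (36.6 to 41.7), CCNG2 27.2 CPM (25.2 to 29.4), FOXO3 82.6 CPM (79 to 86.4) and TXNIP 48.5 CPM (45.8 to 51.4). The Okbyeongpung-san library of the same batch and dose had 2.26 CPM of DEPP1, 32.7 of FOXO1, 21.3 of CCNG2, 72.4 of FOXO3 and 52.6 of TXNIP. BCL6 had 30.8 CPM (28.7 to 33.1) at 20 µg/mL against 23.5 CPM (21.7 to 25.4) at 100 µg/mL and 24.3 CPM (22.3 to 26.4) at 500 µg/mL.

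Other genes of the pathway were counted from lists. Of 29 tested genes between the insulin receptor and AKT (32 listed), Soshiho-tang at 500 µg/mL raised 8 and lowered 5 against vehicle, Yijin-tang raised 5 and lowered 4, and Okbyeongpung-san raised 1 and lowered 1. Of all genes, 39.2%, 21.4% and 4.38% were called in these comparisons, and the list's share with Soshiho-tang was near the first. Medians were 0.08, 0.03 and 0.02, beside -0.03, -0.02 and 0.00 over all genes. PI3K regulatory subunits moved in both directions against vehicle. PIK3R2 fell by 0.48 ± 0.0591 on the log2 scale and PIK3R3 by 0.42 ± 0.053 with Soshiho-tang (edgeR adjusted p = 2.4e-07 and 4.1e-07), while PIK3R1 rose by 0.21 ± 0.0586 (adjusted p = 0.0056). PIK3R1 was already higher than vehicle at the lowest dose of Soshiho-tang (0.29 ± 0.0584, adjusted p = 0.0012). Between 500 µg/mL and that dose it was not called (-0.08 ± 0.0585, adjusted p = 0.34). PIK3R2 and PIK3R3 were lower there, with log2 fold changes of -0.35 ± 0.06 and -0.41 ± 0.0538 (adjusted p = 5.5e-05 and 1.2e-06). PHLPP2, a phosphatase that removes phosphate from AKT, rose by 0.53 ± 0.0565 against vehicle with Soshiho-tang at 500 µg/mL (adjusted p = 2.6e-08). Its levels were 48.9 to 53.8 CPM in vehicle and 72.8 to 75.5 CPM at that dose. PHLPP2 also rose with Yijin-tang (0.41 ± 0.0566, adjusted p = 1.1e-05) and Okbyeongpung-san (0.29 ± 0.0731, adjusted p = 0.04). At the lowest dose it was already higher than vehicle with Soshiho-tang (0.36 ± 0.0567, adjusted p = 7.8e-05) and Yijin-tang (0.36 ± 0.0566, adjusted p = 8.8e-05). Okbyeongpung-san gave 0.30 ± 0.0731 there, which was not called (adjusted p = 0.073). From the lowest dose to 500 µg/mL PHLPP2 rose by 0.17 ± 0.0562 with Soshiho-tang (adjusted p = 0.029). That step was not called for Yijin-tang (0.05 ± 0.0562) or Okbyeongpung-san (0.00 ± 0.0805). TRIB3, a pseudokinase that binds AKT, rose by 0.42 ± 0.0616 against vehicle with Soshiho-tang at 500 µg/mL (adjusted p = 4.4e-06).

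Among 18 genes of the mTOR complexes and their regulators, 4 rose and 3 fell with Soshiho-tang at 500 µg/mL against vehicle, 3 rose and 1 fell with Yijin-tang, and 1 rose with Okbyeongpung-san, where 39.2%, 21.4% and 4.38% of all genes were called. The list's share with Soshiho-tang was near that of all genes. DEPTOR, an inhibitory mTOR partner, fell from 4.47 to 4.88 CPM in vehicle to 1.97 to 2.56 CPM with Soshiho-tang, by 1.00 ± 0.14 on the log2 scale (edgeR adjusted p = 2.8e-06). SESN1, a sestrin that restrains mTORC1 and is a target of p53 and FOXO, fell from 23.9 to 26.7 CPM to 14.3 to 14.8 CPM, by 0.82 ± 0.0664 (adjusted p = 1.7e-10). With Yijin-tang at 500 µg/mL neither was called, at -0.09 ± 0.13 for DEPTOR (adjusted p = 0.66) and -0.02 ± 0.0613 for SESN1 (adjusted p = 0.83), and both were lower with Soshiho-tang than with Yijin-tang, with log2 fold changes of -0.91 ± 0.15 and -0.80 ± 0.0675 (adjusted p = 6.3e-05 and 1.5e-09). RICTOR, the defining subunit of mTORC2, rose against vehicle with Soshiho-tang (0.50 ± 0.0516, adjusted p = 1.3e-08), Yijin-tang (0.45 ± 0.0516, adjusted p = 1e-06) and Okbyeongpung-san (0.38 ± 0.0862, adjusted p = 0.03). It was not called between 500 and 20 µg/mL of Soshiho-tang (0.06 ± 0.0513, adjusted p = 0.43).

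A list of 33 other FOXO genes and targets had 26 tested members. With Soshiho-tang at 500 µg/mL 6 rose, 12 fell and 8 were not called against vehicle, and 3 rose and 11 fell against 20 µg/mL, where 39.2% and 26.6% of all genes were called. The medians were -0.15 and -0.17, beside -0.03 and -0.01 over all genes. Yijin-tang raised 4 and lowered 4 against vehicle (21.4% of all genes called), and Okbyeongpung-san raised 2 and lowered 2 (4.38%). SESN1 and RICTOR stand in this list and in that of mTOR genes. FOXO4 fell with Soshiho-tang by 0.45 ± 0.068 on the log2 scale (edgeR adjusted p = 6e-06), so of the FOXO factors FOXO1 was higher and FOXO3 and FOXO4 were lower. PDK4, a kinase that holds back pyruvate oxidation and a classic FOXO target, rose by 0.74 ± 0.0906 with Soshiho-tang (4.55 to 4.96 CPM in vehicle, 7.62 to 8.53 CPM, adjusted p = 2.5e-07) and by 0.82 ± 0.13 with Okbyeongpung-san (7.76 and 8.94 CPM, adjusted p = 0.0051). With Soshiho-tang PDK4 thus moved the opposite way from DEPP1 and TXNIP. It was already above vehicle with Soshiho-tang at 20 µg/mL (5.69 to 6.04 CPM) and lay above it with Yijin-tang at 500 µg/mL (5.42 to 6.37 CPM). For that part of the rise, treatment and the library set of the vehicle cannot be told apart. KLF6, a zinc finger factor, fell with all 3 formulas against vehicle, by 0.32 ± 0.0535, 0.52 ± 0.0537 and 0.58 ± 0.073 (adjusted p = 2.6e-05, 2.8e-07 and 0.0011). Without vehicle libraries it was higher at 500 than at 20 µg/mL of Soshiho-tang, by 0.15 ± 0.0545 (adjusted p = 0.046).

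The glucose-sensing factors and their targets, 10 tested genes of 11, gave 6 rises and 2 falls with Soshiho-tang at 500 µg/mL against vehicle and again against 20 µg/mL, with medians of 0.19 and 0.21. All genes had medians of -0.03 and -0.01 there, with 39.2% and 26.6% called. SLC2A1, the glucose transporter GLUT1, rose by 0.57 ± 0.0412 (457 to 519 CPM in vehicle, 712 to 728 CPM, edgeR adjusted p = 2.2e-11), and HK2, a hexokinase, by 0.35 ± 0.0466 (adjusted p = 1e-06). KLF10, a MondoA and ChREBP target, rose by 0.39 ± 0.0486 (adjusted p = 3.5e-07). MLXIP, which encodes MondoA, fell by 0.29 ± 0.0511 (160 to 195 CPM in vehicle, 141 to 148 CPM, adjusted p = 5.1e-05). MLXIPL, which encodes ChREBP, was at 0.499 to 0.594 CPM in vehicle and at 0.138 to 0.289 CPM (-1.27 ± 0.37, adjusted p = 0.0079). ARRDC4, a relative of TXNIP among these targets that was picked after its value was seen, was not called (-0.21 ± 0.0884, adjusted p = 0.065). The list also holds the relatives ARRDC2 and ARRDC3, whose values are not given here, so ARRDC4 does not stand for them. Yijin-tang raised 1 and lowered 1 of the 10 against vehicle, where 21.4% of all genes were called. The cyclin G and BCL6 relatives, 4 tested of 6, gave 2 falls with Soshiho-tang (39.2% of all genes called) and 1 with Yijin-tang (21.4%) at 500 µg/mL against vehicle, numbers near those shares.

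Other genes shared the patterns of DEPP1 and TXNIP over the groups. Among 10021 genes averaging at least 5 CPM, Pearson's r of log2 CPM over the 13 group means was highest with DEPP1 for RTN4R (0.97), MOB3A (0.96) and SYT7 (0.93). RTN4R had a mean of 22 CPM in vehicle, 16.6 in Soshiho-tang and 16.8 in Yijin-tang at 500 µg/mL. For TXNIP they were TLE1 (0.97), ARHGEF19 (0.92) and BCL7A (0.91). TLE1, a Groucho corepressor, went from 59.1 CPM in vehicle to 46.1 CPM in Soshiho-tang and 55.1 CPM in Yijin-tang at 500 µg/mL. The TXNIP mean was 30 CPM with Soshiho-tang at 500 µg/mL and 44.7 to 52.9 CPM in the other groups, so that group weighs heavily in r. The genes most like IRS2 were FASN (0.83), DMWD (0.82) and CITED2 (0.81), and those most like PIK3IP1 were AMACR, GLB1 and PAPSS1, each at 0.93. Spearman's rho of the 3 genes was 0.92 to 0.95 for DEPP1 and 0.66 to 0.92 for TXNIP. It was 0.66 to 0.85 for IRS2 and 0.72 to 0.87 for PIK3IP1. Group means of different genes come from the same libraries and share their depth, and these values are a description.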

How the data were processed

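RNA of HT29 cells was sequenced from a directional library kit with 100 bp paired-end reads, per the labels' protocols. The deposited table holds expected counts per gene, estimated and not normalised between libraries. The authors used RSEM 1.3.3 and STAR 2.7.3a with GRCh38, besides Trim Galore 0.6.5 and FastQC 0.11.9, per the submitters' processing notes. The annotation release is not given in the sources used here. Between 9.5% and 11.5% of a library's values were not whole, and 30 unnamed, empty columns were left out. Expected counts divide reads between genes that share sequence.

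Counts were rounded. Groups came from the labels. With edgeR 4.0.16 (R 4.3.3), genes were filtered by filterByExpr, libraries scaled by TMM and groups compared by the robust quasi-likelihood F-test with Benjamini-Hochberg adjustment over all genes. Vehicle, Soshiho-tang and Yijin-tang shared a fit (21 libraries, 15895 genes), as did vehicle and Okbyeongpung-san (9 libraries, 15764 genes). Their biological coefficients of variation were 4.7% and 7%. SEs were derived from the F statistic. Depth was 18.5 M to 36.2 M counts. Replicate pairs differed beyond sampling noise (chi-square divided by its degrees of freedom, 2.41 to 20.6). The vehicle pairs had the largest values, 20.6, 20.2 and 11.2, followed by the pair of Okbyeongpung-san at its middle dose with 10.4. Pairs of Soshiho-tang and Yijin-tang had 2.41 to 7.02. A shared fit estimates the spread from all its groups. SEs and p-values against vehicle thus rest in part on extract groups whose pairs differed less than those of vehicle. Coordinates are from GENCODE release 29.

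Alternatives were DESeq2 1.42.0, RLE size factors, no filter, only the libraries compared, the replicate number as a block, leaving out each library, batch E alone and, chosen after seeing the data, 1 fit of all 30 libraries and fits without replicate 2 of Okbyeongpung-san at 100 µg/mL. The procedure was tested on simulated data. All 10 genes were named in every comparison. List genes named were up to 4 per list with the smallest adjusted p in each formula's comparison of 500 µg/mL with vehicle, from which the text takes examples, and genes of like pattern were the 3 with the highest r for DEPP1, PIK3IP1, IRS2 and TXNIP. The genes and lists were chosen with earlier results of these data known.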

Additional observations from a re-analysis of the deposited data

Results flagged for a closer look

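The change from 20 to 500 µg/mL differed between 2 formulas for 2 of the 10 genes, by a test of the difference itself (edgeR's quasi-likelihood interaction term with Benjamini-Hochberg adjustment over all genes). That test called 4.69% of all genes. TXNIP differed by -0.55 ± 0.08 (SE), with a log2 fold change of -0.58 for Soshiho-tang and -0.04 for Yijin-tang (adjusted p = 4.7e-05), and all 3 Soshiho-tang libraries at 500 µg/mL lay below those at 20 µg/mL. CCNG2 differed by -0.29 ± 0.0803, with -0.55 for Soshiho-tang and -0.27 for Yijin-tang (adjusted p = 0.034). The TXNIP call held in 17 of 17 alternatives, and that of CCNG2 in 7 of 17 and not with DESeq2. Both formulas lowered CCNG2 in all 3 libraries at 500 µg/mL relative to those at 20 µg/mL.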

How the results depend on the processing

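Of 39 calls among 160 pairs of gene and comparison, 18 held under every alternative, 0 reversed, and 19 pairs without a call gained one under some alternative. With only the libraries compared in the fit, the number of the 10 genes called against vehicle went from 7 to 3 for Soshiho-tang at 500 µg/mL, from 3 to 1 at 100 µg/mL and from 3 to 1 at 20 µg/mL, and for Yijin-tang from 2 to 1 at 500 µg/mL and from 4 to 1 at 20 µg/mL, while between 500 and 20 µg/mL of Okbyeongpung-san it went from 1 to 3. The share of all genes called against vehicle fell in that setting from 16.8% to 2.38% for Soshiho-tang at 20 µg/mL and from 39.2% to 27.8% at 500 µg/mL. Between 500 and 20 µg/mL it rose, from 26.6% to 32.9% for Soshiho-tang, from 1.92% to 5.75% for Yijin-tang and from 0.558% to 6.29% for Okbyeongpung-san. Without a filter on low counts there was 1 call between 500 and 20 µg/mL of Yijin-tang (2 in the main analysis), and against vehicle 1 for Okbyeongpung-san at 100 µg/mL and 2 at 20 µg/mL (0 each). DESeq2 called 1 gene for the difference of the dose effects (2) and 0 for Okbyeongpung-san at 500 µg/mL against vehicle (1), where DEPP1 had no adjusted p. With batch E alone the latter count was 0. In 1 fit of all 30 libraries Okbyeongpung-san had 2, 2 and 3 calls against vehicle at 500, 100 and 20 µg/mL and 2 between 500 and 20 µg/mL, and 17.5% of all genes were called at 500 µg/mL against vehicle (4.38%). Fits of fewer libraries estimate the spread from fewer samples and from those groups alone. The cause of these shifts, which went in both directions, was not tested.

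The replicate numbers did not pair the samples: deviations of same-numbered libraries from their group means correlated at -0.06 to 0.06 in the larger fit and -0.07 to 0.04 in that of Okbyeongpung-san. With the replicate number as a block the count of calls for Okbyeongpung-san at 20 µg/mL against vehicle was 1 (0 without it), that of FOXO1 at -0.32, and no other count over the 10 genes moved by over 1.5 times. BCL6 was called in that setting for Soshiho-tang (0.22) and Yijin-tang (0.20) at 20 µg/mL and FOXO1 for Yijin-tang at 100 µg/mL (-0.14), all against vehicle. Leaving out 1 library at a time gave 4 to 7 calls for Soshiho-tang at 500 µg/mL against vehicle (4 without vehicle replicate 1), 1 to 3 at 100 µg/mL (1 without replicate 3 of the dose), and 1 to 6 for Yijin-tang at 20 µg/mL (1 without vehicle replicate 3 or replicate 2 of the dose). It gave 0 to 2 between 500 and 20 µg/mL of Yijin-tang (0 without replicate 1 at 500 µg/mL), 3 to 5 between Soshiho-tang and Yijin-tang at 500 µg/mL (3 without replicate 2 of Soshiho-tang), and 1 to 2 for the difference of the dose effects. For Okbyeongpung-san it gave 0 to 1 at 500 µg/mL and 0 to 1 at 20 µg/mL against vehicle, and 0 in each case between 500 and 20 µg/mL. Depth was lowest for PIK3IP1, at 6 to 37 counts per library.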
